A study of Mus musculus with 36 samples.

Results

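Genes of the enzymatic defence against oxygen radicals and peroxides were followed through germ cells, embryos and metabolic tissues of the mouse. They are 10 genes chosen by symbol: Sod1, Sod2, Cat, Gpx1, Gpx3, Gpx4, Prdx3, Prdx5, Txn2 and Nqo1. All 10 were found by gene identifier in each of the 6 count tables, which list 51912 to 55487 genes. Superoxide, mostly a by-product of mitochondrial respiration, is converted to hydrogen peroxide by the superoxide dismutases. Catalase, the glutathione peroxidases and the peroxiredoxins then reduce hydrogen peroxide and lipid peroxides, and the thioredoxin and glutathione systems hand them the electrons. Spermatozoa have little cytoplasm and membranes rich in unsaturated lipids, so these enzymes, both in the sperm cell and in the epididymal fluid around it, are well studied in male reproduction.

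The series asks how a short paternal diet is passed to offspring through sperm. Wildtype males (F0), C57BL/6 in the labels and C57BL/6N in the study's methods, received a high-fat diet (HFD, 60% of kcal from fat) or a low-fat diet (LFD, 10% of kcal from fat) from 6 to 8 weeks of age. Cauda spermatozoa, which are mature sperm from the tail of the epididymis purified here by swim-up, came from HFD and LFD males, 3 libraries each. Morulae, the compacted cleavage-stage embryo, were obtained by in vitro fertilization with sperm of HFD or LFD males and oocytes of unexposed females and picked after 72 h of culture, again 3 libraries per diet. Round spermatids, the haploid cells that precede sperm in the testis, were isolated to a stated minimum purity of 85 to 90% from males on both diets. Liver, epididymal white adipose tissue (eWAT) and gastrocnemius muscle came from sons phenotyped at 16 weeks and again later. By the study's methods the sons themselves ate only chow after weaning. All their libraries carry the HFD label, which names the diet of the fathers, and are described as HFD tolerant or HFD intolerant. The table columns of round spermatids and of the 3 tissues do not say which library belongs to which subgroup, so each was treated as 1 group of 6. In 3 of the 6 morula samples a second label names the other diet, and the sample titles were followed. Nothing in the labels says that libraries came from separate animals or embryo batches, so p-values measure the spread between these libraries, part of which may be technical.

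Levels are given as CPM, the counts of a gene divided by the total of its library and scaled to a common size. Depth and purity differed between the tables. Total counts per library were 20138842 to 31056066 in round spermatids, 2560219 to 4062321 in sperm, 11471251 to 12153141 in morulae, 2036237 to 2552454 in liver, 1338149 to 4055537 in eWAT and 369772 to 2749920 in gastrocnemius. No 2 libraries of a group agreed within counting noise. The defining markers of each tissue were present in its own libraries, with hepatocyte markers summing to 40779 to 60712 CPM in liver, adipocyte markers to 21343 to 35377 CPM in eWAT and skeletal muscle markers to 27412 to 59326 CPM in gastrocnemius. Sperm markers summed to 4252 to 10736 CPM in the sperm libraries and to 7659 to 10070 CPM in round spermatids, so this list does not set the 2 cell types apart. Inner cell mass markers summed to 134 to 194.4 CPM in morulae. The germ cell and embryo libraries were made with a whole-transcript kit, the tissue libraries with a kit that reads only the 3′ end of each transcript, so no comparison was made across the kits. In these bulk libraries, fewer cells of a type and less RNA per cell cannot be told apart.

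Gpx1, Gpx3 and Gpx4 encode selenoproteins, in which a TGA codon inside the reading frame is read as selenocysteine at the catalytic centre. The coding sequence of each holds exactly 1 in-frame TGA before its stop codon, and the other 7 members hold 0. The 27 coding bases around it are shown 5′ to 3′ on the GRCm38 genome because Gpx4 shares its stretch with copies of the gene, which bears on its counts. The TGA is in capitals. In Gpx1 it is codon 47 at chr9:108339451-108339453, in Gpx3 codon 73 at chr11:54907256-54907258 and in Gpx4 codon 73 at chr10:80054737-80054739, all on the plus strand and in coding exons.
Gpx1: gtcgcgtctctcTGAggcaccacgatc
Gpx3: gtagccagctacTGAggtctgacagac
Gpx4: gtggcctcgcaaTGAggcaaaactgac
Gpx4-ps2: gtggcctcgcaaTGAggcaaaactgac
AC122253.3: gtggcctcgcaaTGAggcaaaaccgat
The last 2 lines are copies of Gpx4 elsewhere in the genome. Gpx4-ps2 (chr10:45875291-45876086) matched the Gpx4 transcript at 99.7% identity over 79.5% of its length, and all 27 bases of the window were identical. AC122253.3 (chr17:80054026-80054556), a processed pseudogene, matched at 95.1% over 55.4%, with 25 of 27 bases identical in the window.

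The levels of the 10 genes set the libraries apart by cell type. Per kilobase of exon, Gpx4 led in round spermatids, Gpx3 in sperm and, with the exon lengths of the morula table, Gpx1 in morulae, and in the tissues Gpx3 was high in eWAT while Cat, Gpx1 and Sod1 were low in gastrocnemius. The plot of all members by library shows these levels together. CPM are used here to describe 1 gene across libraries of a kit. Genes were ranked against each other only in the whole-transcript libraries and only per kilobase of annotated exon.

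**Figure D1:**
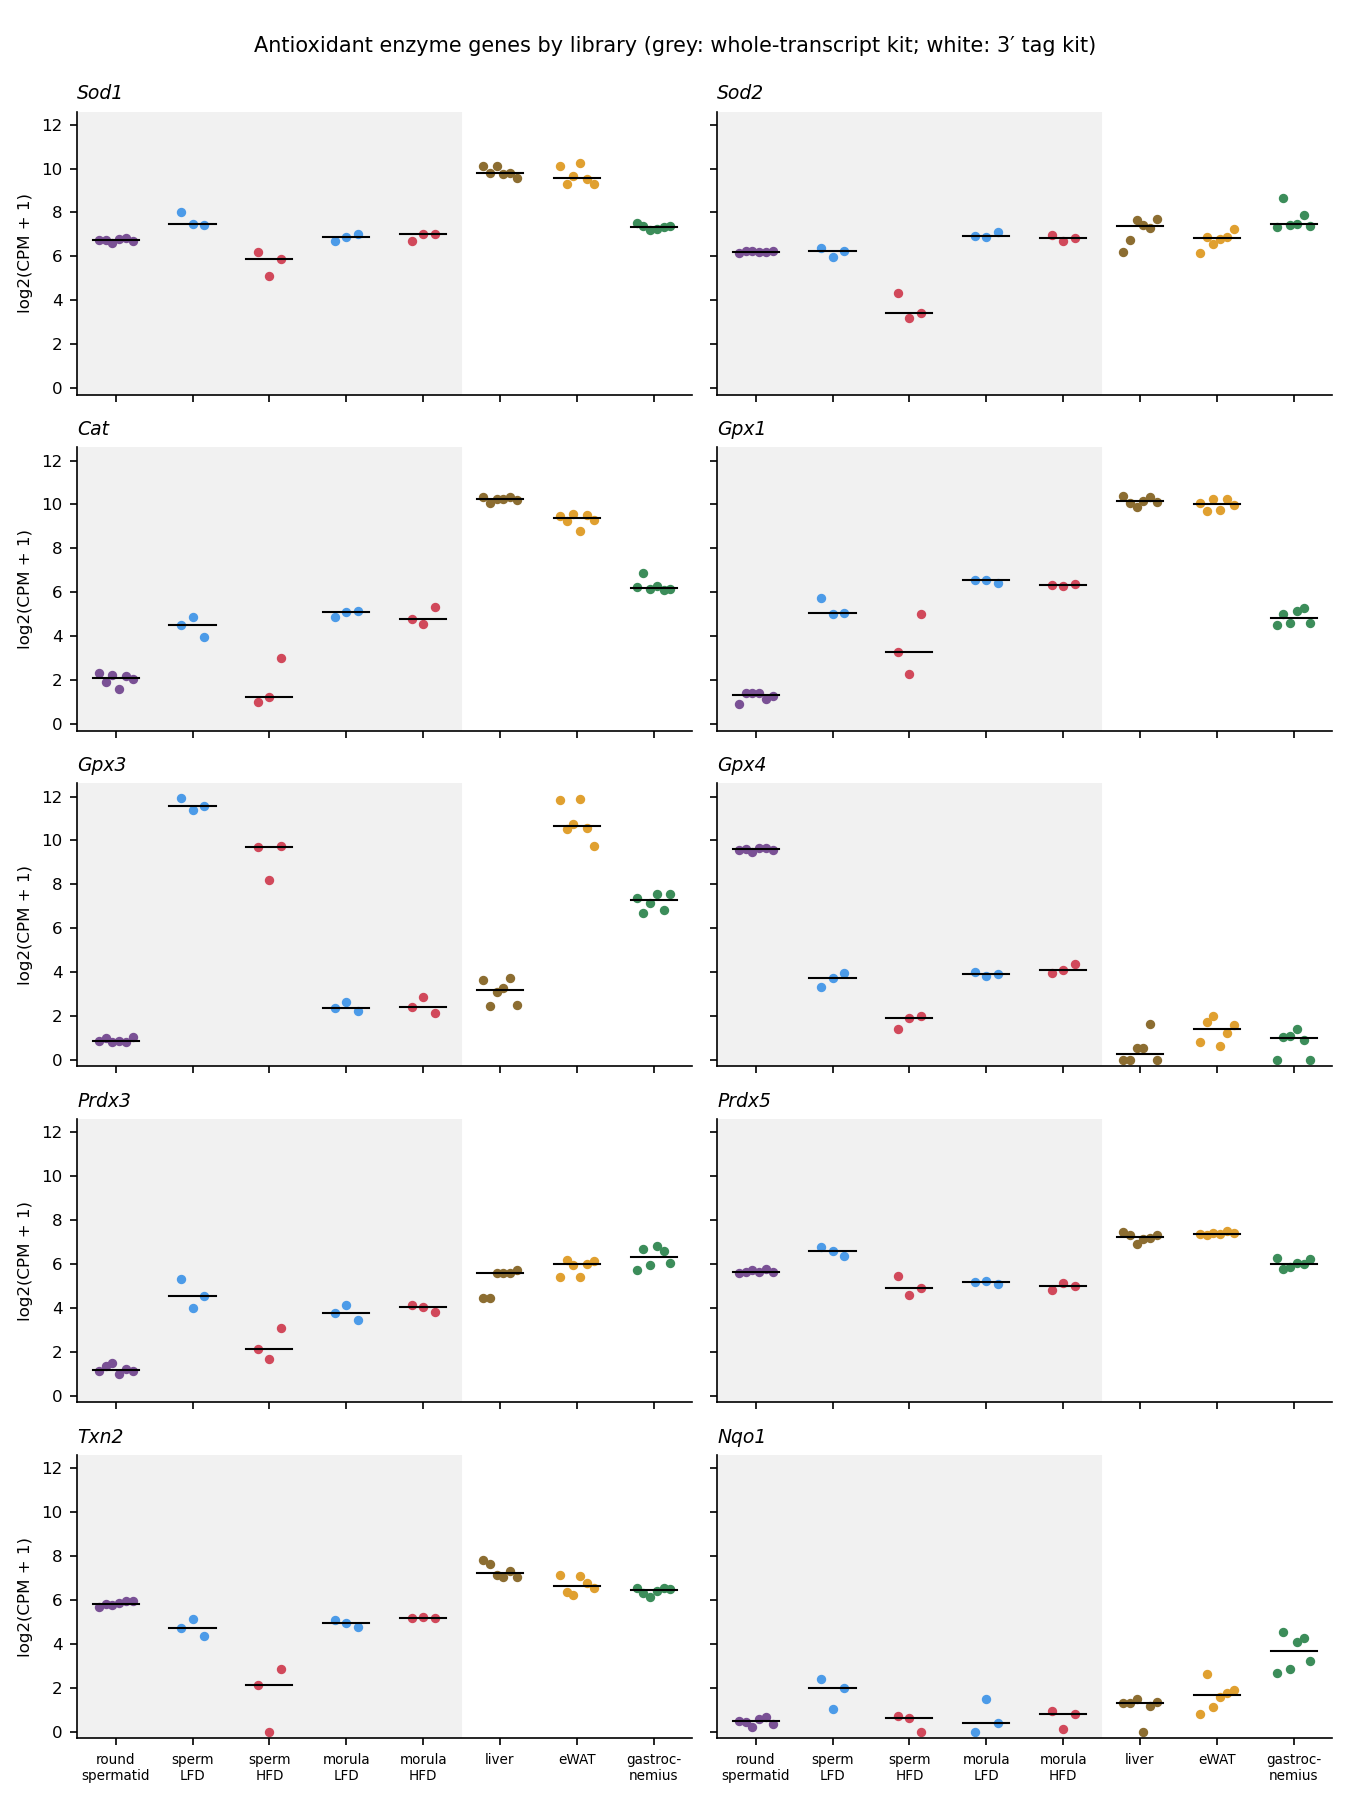
Level of each antioxidant enzyme gene in every library, as log2(CPM + 1) on the vertical axis, with the groups along the horizontal axis, 1 point per library and a line at the median of the group. Grey areas mark libraries of the whole-transcript kit and white areas those of the 3′ tag kit, which are not compared with each other; Gpx4 stands high in round spermatids and near 0 in the 3 tissues, and Gpx3 stands high in sperm and eWAT.

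Superoxide dismutases come first in the pathway. Sod1 (ENSMUSG00000022982, chr16:90220754-90226329, plus strand), the copper-zinc enzyme of the cytosol, ranged from 96.2 to 112 CPM in round spermatids (median 106). In sperm Sod1 was at 73.5, 33.2 and 57.6 CPM in the HFD libraries of 2994295, 3679276 and 4062321 counts, and at 257, 176 and 172 CPM in the LFD libraries of 2560219, 2913166 and 3050543 counts. Morulae of HFD fathers gave 104, 130 and 130 CPM and those of LFD fathers 104, 116 and 129 CPM. The morula diets overlapped, whereas all HFD sperm libraries lay below all LFD sperm libraries on this scale, as for 57.2% of all tested genes. In the tissues Sod1 was high in liver (758 to 1126 CPM, median 882) and eWAT (626.4 to 1231, median 768) and low in gastrocnemius (146 to 181, median 163). The ranges of liver and eWAT overlapped and that of muscle lay below both.

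Sod2 (ENSMUSG00000006818, chr17:13006846-13040063, plus strand) is the manganese enzyme of the mitochondrial matrix. It was nearly constant across round spermatids, at 70.6 to 75.1 CPM. Sperm libraries held 19.4, 8.15 and 9.60 CPM on HFD and 83.2, 62.5 and 74.7 CPM on LFD, and morulae 124, 105 and 115 CPM (HFD) and 122, 116 and 136 CPM (LFD). The sperm diets were again apart, with HFD below as for 57.2% of all tested genes, and the morula diets overlapped. Liver ranged from 72.2 to 210 CPM (median 163), eWAT from 71.0 to 151 (median 113) and gastrocnemius from 160 to 401 (median 175). One muscle library, that of 935991 counts, held the 401 CPM, and the other 5 lay between 160 and 236.

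Among the enzymes that remove hydrogen peroxide, Cat (ENSMUSG00000027187, chr2:103453849-103485160, minus strand), the peroxisomal catalase, was almost absent from round spermatids at 1.99 to 4.07 CPM. It stood at 1.00, 1.36 and 7.14 CPM in HFD sperm, from 3, 5 and 29 counts, and at 21.9, 28.5 and 14.8 CPM in LFD sperm. Morulae held 26.7, 22.5 and 39.7 CPM on HFD and 28.0, 33.6 and 34.9 CPM on LFD. Liver, rich in peroxisomes, had 1073 to 1299 CPM in its 6 libraries, eWAT 436 to 750 and gastrocnemius 68.1 to 115. The 3 tissues did not overlap.

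Gpx1 (ENSMUSG00000063856, chr9:108338903-108340343, plus strand), the cytosolic and mitochondrial glutathione peroxidase, was as scarce in round spermatids, at 0.894 to 1.699 CPM. In sperm it was at 8.68, 3.81 and 31.3 CPM on HFD and at 52.3, 30.9 and 32.8 CPM on LFD, so that 1 HFD library reached into the LFD range. Morulae of HFD fathers held 79.9, 75.9 and 82.7 CPM and those of LFD fathers 92.7, 94.1 and 83.5 CPM. These did not overlap, although the gap between them was small, and 5.29% of all tested genes likewise had HFD below. Liver (939 to 1324 CPM) and eWAT (844 to 1221 CPM) overlapped, and gastrocnemius (21.6 to 37.4 CPM) lay far below both.

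Gpx3 (ENSMUSG00000018339, chr11:54902453-54910377, plus strand) encodes the secreted peroxidase of plasma, which is also made by the epididymal epithelium. It was at 0.768 to 1.03 CPM in round spermatids and 3.37 to 6.20 CPM in morulae. Sperm held 819, 291 and 847 CPM on HFD and 3900, 2714 and 2991 CPM on LFD, and it held the first place among the members per kilobase (161 to 467 CPM per kb on HFD, 1497 to 2151 on LFD). Gpx3 supplied 79.6 to 84.8% of the summed CPM of the 10 members in HFD sperm and 85.6 to 87.3% in LFD sperm, against 0.1% or less in round spermatids. In the tissues it was at 4.41 to 12.4 CPM in liver, 104 to 190 in gastrocnemius and 858 to 3792 in eWAT, with no overlap. Within eWAT 2 libraries stood apart, with 3697 CPM in that of 1338149 counts and 3792 CPM in that of 3512177 counts, against 858 to 1694 CPM in the other 4.

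Those 2 eWAT libraries also carried transcripts of neighbouring reproductive tissue. The summed epididymal epithelium markers (6 genes, of which Lcn5 and Lcn8 were at 0 in every eWAT library) were 17.9 CPM in the library of 1338149 counts and 11.4 CPM in that of 3512177 counts, and 0 to 0.605 CPM in the other 4. The library of 3512177 counts had in addition 66.3 CPM of round spermatid markers (7 of 7 genes detected across eWAT), against 0.986 to 3.44 CPM in the other 5. Their part in the Gpx3 level was not tested, and the tissue comparisons are given below with and without both libraries.

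Gpx4 (ENSMUSG00000075706, chr10:80047166-80056439, plus strand) encodes the phospholipid hydroperoxide peroxidase, which becomes a structural protein of the sperm midpiece. Round spermatids held 714 to 809 CPM, or 414 to 469 CPM per kb, the first place among the members and 71.5 to 73.3% of their summed CPM. In sperm it came from 5 to 44 counts per library, at 1.67, 2.72 and 2.95 CPM on HFD and 8.98, 12.4 and 14.4 CPM on LFD. Morulae held 14.5, 16.3 and 19.9 CPM (HFD) and 15.2, 13.1 and 14.2 CPM (LFD). In the tissue libraries Gpx4 was at 0 to 2.13 CPM in liver, 0.569 to 3.03 in eWAT and 0 to 1.66 in gastrocnemius, with at most 10 counts in any library.

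In the tissues a low level of the Gpx4 transcript and a loss of its reads to copies of the gene cannot be told apart. Of the 50-base stretches of the Gpx4 transcript, the read length of the tissue libraries, 68.9% occur identically in another gene, Gpx4-ps2 or AC122253.3. In the last 300 bases, which a 3′ tag kit reads, the share is 98.4%. Gpx4-ps2 received 5536 counts over the 6 round spermatid libraries, 321 over the morulae, 21 over sperm, 9 over eWAT, and 0 over liver and gastrocnemius. How reads with several matches were handled is not given in the sources used here, and the cause of the low counts was not tested. Other members were less affected. Sod1 shared 23.1% of its 50-base stretches with a pseudogene, Gm8566 (97.8% identity), Prdx5 29.7% with the overlapping Trmt112, and Sod2 1.43% with repeats. In the last 300 bases the shares were 18.3% for Sod1, 9.16% for Sod2 and 0% for Prdx5. Cat, Gpx1, Gpx3, Prdx3, Txn2 and Nqo1 shared none.

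Peroxiredoxins reduce peroxides with electrons from thioredoxin. Prdx3 (ENSMUSG00000024997, chr19:60864051-60874556, minus strand), the mitochondrial peroxiredoxin, was at 0.995 to 1.78 CPM in round spermatids. Sperm held 3.34, 2.17 and 7.63 CPM on HFD and 39.5, 14.8 and 22.3 CPM on LFD, with HFD below as for 57.2% of all tested genes. Morulae held 16.7, 15.7 and 13.001 CPM (HFD) and 12.8, 16.4 and 9.97 CPM (LFD), with overlap. Liver was at 20.6 to 52.9 CPM (median 47.1), eWAT at 41.1 to 71.6 (median 63.1) and gastrocnemius at 51.4 to 111 (median 80.8). Each tissue overlapped its neighbour in this order.

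Prdx5 (ENSMUSG00000024953, chr19:6906697-6910106, minus strand), found in mitochondria, peroxisomes and cytosol, was at 47.0 to 53.5 CPM in round spermatids. It stood at 43.1, 22.8 and 29.3 CPM in HFD sperm and 110, 97.1 and 82.0 CPM in LFD sperm, and at 27.4, 34.0 and 31.5 CPM (HFD) and 35.7, 36.6 and 33.1 CPM (LFD) in morulae. The sperm diets were apart, with HFD below as for 57.2% of all tested genes, and the morula diets overlapped. Liver (121 to 174 CPM) and eWAT (159 to 184 CPM) overlapped above gastrocnemius (53.4 to 75.7 CPM). Prdx5 overlaps Trmt112, on the opposite strand, by 409 bases. Trmt112 had 376 to 520 counts per library in morulae and 175 to 253 in round spermatids, but at most 2 in sperm and 9 in the tissues, and without strand in the counting the reads of the 2 genes there cannot be told apart.

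Txn2 (ENSMUSG00000005354, chr15:77915047-77929006, minus strand), the mitochondrial thioredoxin that supplies Prdx3, was at 51.1 to 61.7 CPM in round spermatids. In HFD sperm it was at 3.34, 0 and 6.15 CPM, from 10, 0 and 25 counts, and in LFD sperm at 25.4, 34.7 and 19.7 CPM. The count of 0 was in the library of 3679276 counts, where 3 counts correspond to 0.815 CPM. Morulae held 35.2, 36.1 and 35.2 CPM (HFD) and 33.5, 30.4 and 26.4 CPM (LFD). Every HFD library was above every LFD library by a small margin, as for 6.60% of all tested genes. Liver ranged from 130 to 226 CPM, eWAT from 74.7 to 140 and gastrocnemius from 69.3 to 93.4, each overlapping the next.

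Nqo1 (ENSMUSG00000003849, chr8:107388225-107403206, minus strand), a quinone reductase and a classical target of the stress-responsive factor NRF2, was the lowest member per kilobase in every group of germ cell and embryo libraries by its median. It was at 0.162 to 0.571 CPM in round spermatids, at 0.668, 0.544 and 0 CPM in HFD sperm and at 4.30, 1.03 and 2.95 CPM in LFD sperm, from at most 11 counts. Morulae held 0 to 1.85 CPM, liver 0 to 1.80 CPM and eWAT 0.747 to 5.16 CPM. Only gastrocnemius lay above all liver and eWAT libraries, at 5.41 to 22.4 CPM (median 12.2), from 2 to 41 counts.

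Per kilobase, the order of the members was read within each cell type. In round spermatids Gpx4 and Sod1 (149 to 174 CPM per kb) came first and did not overlap, followed by Prdx5 (median 23.02), Sod2 (18.5 to 19.7) and Txn2 (12.2 to 14.7), and the remaining 5 genes were below 1.6 CPM per kb. In sperm Gpx3 came first and Sod1 and Prdx5, whose ranges overlapped on both diets, next. In morulae Gpx1 came first (52.7 to 57.4 CPM per kb on HFD, 57.9 to 65.3 on LFD), above Sod1 (26.2 to 32.8) and Prdx5 (12.8 to 17.1) with no overlap. The annotated exons of Sod1 and Sod2 are longer in the sperm and morula tables than in the round spermatid table (3970 against 646 bases, and 10008 against 3824), which lowers their values per kb there. Divided by the length of the round spermatid table, the morula counts of Sod1, still taken over the longer exons, gave 161 to 202 CPM per kb, above Gpx1. Reads from the additional exon bases may raise this value, so the order of Sod1 and Gpx1 in morulae was not settled. Gpx3 stayed first in sperm with either length, against 51.3 to 114 CPM per kb for Sod1 on HFD and 266 to 398 on LFD.

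The first diet comparison asked whether antioxidant transcripts of sperm differ after 2 weeks of HFD. With counts scaled by TMM, the trimmed mean of M-values that edgeR uses to place libraries on a common level, none of the 9 members tested was called. Nqo1 was below the count filter. Of all 8643 genes tested, 0 (0%) passed an adjusted p of 0.05 in edgeR's quasi-likelihood test, and 1124 (13%) had an unadjusted p under 0.05, none of them a member. With no gene called at all, the test does not show that the members were alike on both diets. DESeq2, on the same genes, called 286 genes and no member. The fitted log2 differences, HFD over LFD, lay below 0 for 7 members and above 0 for 2, with a median of -0.62 against -0.07 for all genes tested.

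The lowest estimates were those of Txn2 (log2 -1.54 ± 0.91 SE, adjusted p = 0.509, edgeR) and Cat (-1.23 ± 0.79, adjusted p = 0.558, edgeR), from 261 and 221 counts over the 6 libraries. Sod2 (-0.82 ± 0.52), Prdx3 (-0.81 ± 0.66), Gpx4 (-0.62 ± 0.81) and Gpx3 (-0.61 ± 0.54) followed, with adjusted p-values of 0.554 to 0.798 in edgeR's test. Sod1 (-0.13 ± 0.45), Prdx5 (0.14 ± 0.46) and Gpx1 (0.19 ± 0.61) lay within 1 SE of 0, as did Gpx4. Txn2 was the single member of 9 whose diets did not overlap after TMM scaling, with HFD below, against 20.4% of all tested genes without overlap and 12.2% with HFD below. Leaving out 1 library at a time kept all 9 members uncalled, while Gpx1 ranged from -0.71 to 0.57, Prdx5 from -0.22 to 0.37 and Sod1 from -0.50 to 0.03.

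**Figure D2:**
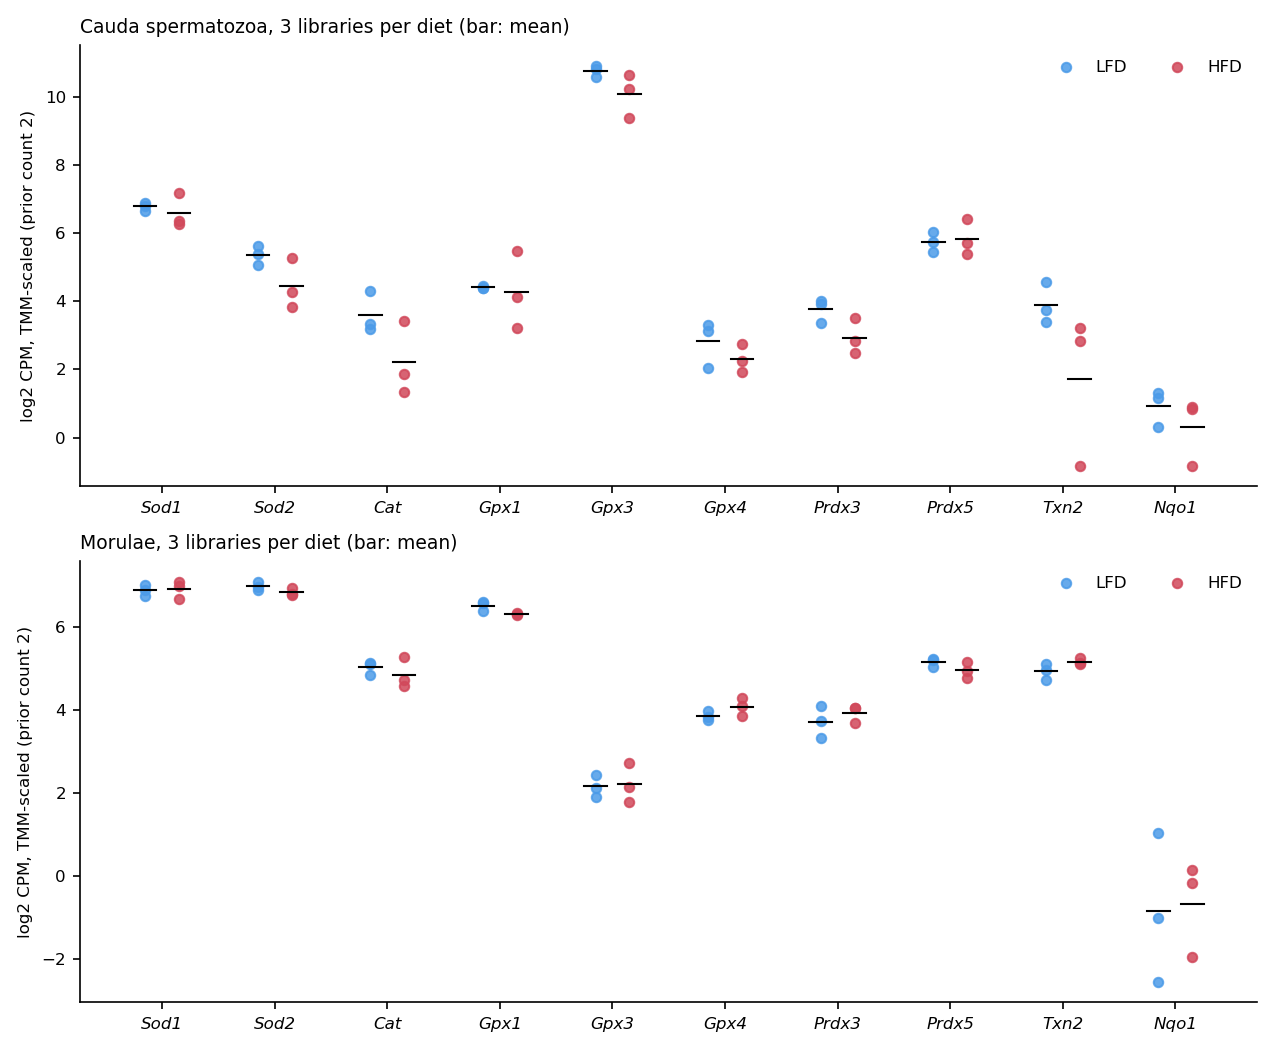
TMM-scaled log2 CPM (vertical axis, prior count 2) of each member in the 3 HFD and 3 LFD libraries of cauda spermatozoa (upper panel) and morulae (lower panel), 1 point per library and a bar at the mean. In sperm the HFD points spread widely and overlap LFD for every tested member but Txn2, and in morulae the points of both diets lie close together for all members but Nqo1.

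The answer in sperm depended on what the counts were divided by. Divided by library totals, 7 of the 9 members (Sod1, Sod2, Cat, Gpx3, Prdx3, Prdx5, Txn2) were called lower on HFD, with log2 differences from -3.05 (Txn2) to -1.60 (Prdx5), and Gpx4 (-2.26) and Gpx1 (-1.40) were not called. On that scale 3266 of the 8643 genes were called and the median of all genes was -1.82, which is 1.75 below its place under TMM. Relative to that median, Txn2 was at -1.23 and Cat at -0.93, while Gpx1 (0.42) and Prdx5 (0.21) were above it and Sod1 (-0.07) close to it. In CPM of library totals, 8 of the 9 tested members had every HFD library below every LFD library, against 57.2% of all tested genes (57.7% did not overlap in either direction).

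The total of these libraries is largely mitochondrial. Genes of the mitochondrial DNA took 84.3, 79.0 and 78.1% of counts in the HFD libraries and 43.5, 63.4 and 64.7% in the LFD libraries. In CPM of nuclear gene counts alone, 6 of 9 members (Sod2, Cat, Gpx3, Gpx4, Prdx3, Txn2) still had all HFD libraries below all LFD libraries, against 26.2% of all tested genes (29.6% did not overlap in either direction). On that scale Sod2 was at 123, 38.9 and 43.8 CPM on HFD and 147, 171 and 211 CPM on LFD. Gpx3 was at 5203, 1389 and 3865 CPM on HFD and 6900, 7412 and 8461 CPM on LFD. Gpx1 (55.2, 18.1 and 143 CPM against 92.6, 84.4 and 92.7) and Prdx5 (274, 109 and 134 CPM against 195, 265 and 232) overlapped, as did Sod1.

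**Figure D3:**
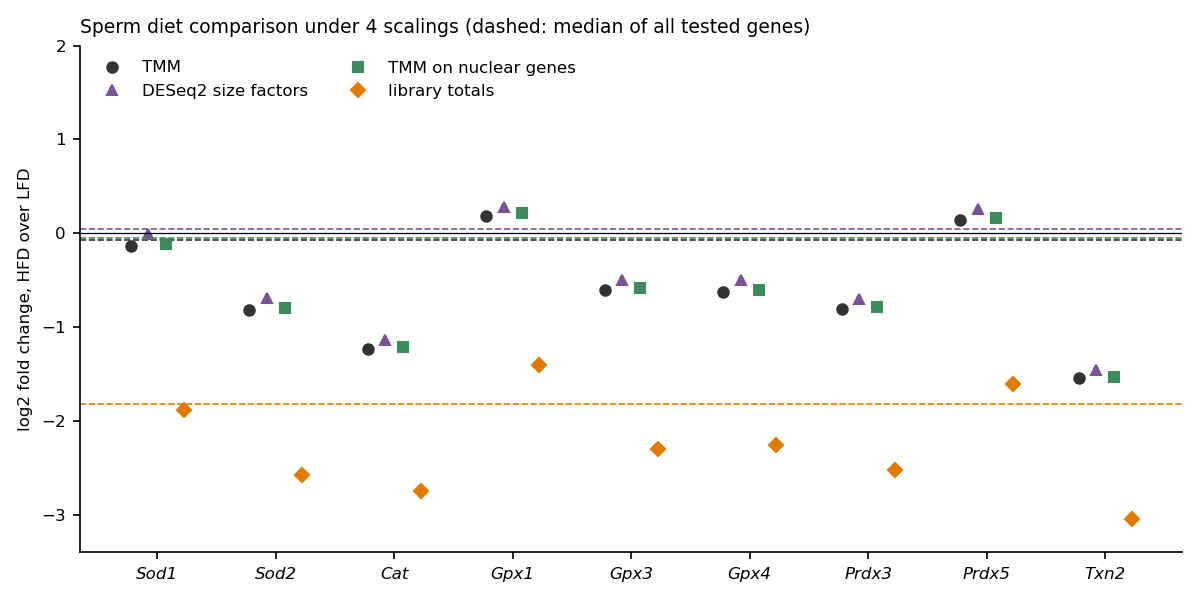
Log2 fold change, HFD over LFD, of the 9 tested members in sperm (vertical axis) under 4 ways of scaling the libraries, with a dashed line of the same colour at the median of all tested genes. Scaling by library totals lowers the members and the median of all genes together, from -0.07 to -1.82.

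Summed markers of other cell types were also lower on HFD in the same libraries, in CPM of library totals. Epididymal epithelium markers (6 genes, Lcn8 at 0 in HFD) summed to 2548, 1993 and 3812 CPM in HFD sperm and 33552, 4193 and 11571 CPM in LFD sperm, and to at most 0.755 CPM in round spermatids. Leukocyte markers, 5 of 5 detected, summed to 554, 281 and 827 CPM on HFD and 3969, 1569 and 2183 CPM on LFD. The sperm markers themselves overlapped, at 7251, 10736 and 5562 CPM on HFD and 4252, 9869 and 6578 CPM on LFD. Both marker sums and Gpx3 were thus higher in every LFD than in every HFD library in CPM of library totals, as were 57.2% of all tested genes. The part of these cells in the member values was not tested. Per nuclear gene count the epididymal markers overlapped, at 16187, 9502 and 17404 CPM on HFD and 59357, 11449 and 32737 CPM on LFD. The leukocyte markers did not, at 3522, 1340 and 3774 CPM on HFD and 7021, 4286 and 6176 CPM on LFD. On that scale 26.2% of all tested genes likewise had every HFD library below every LFD library. The study used only sperm samples without visible somatic cells under the microscope.

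**Figure D4:**
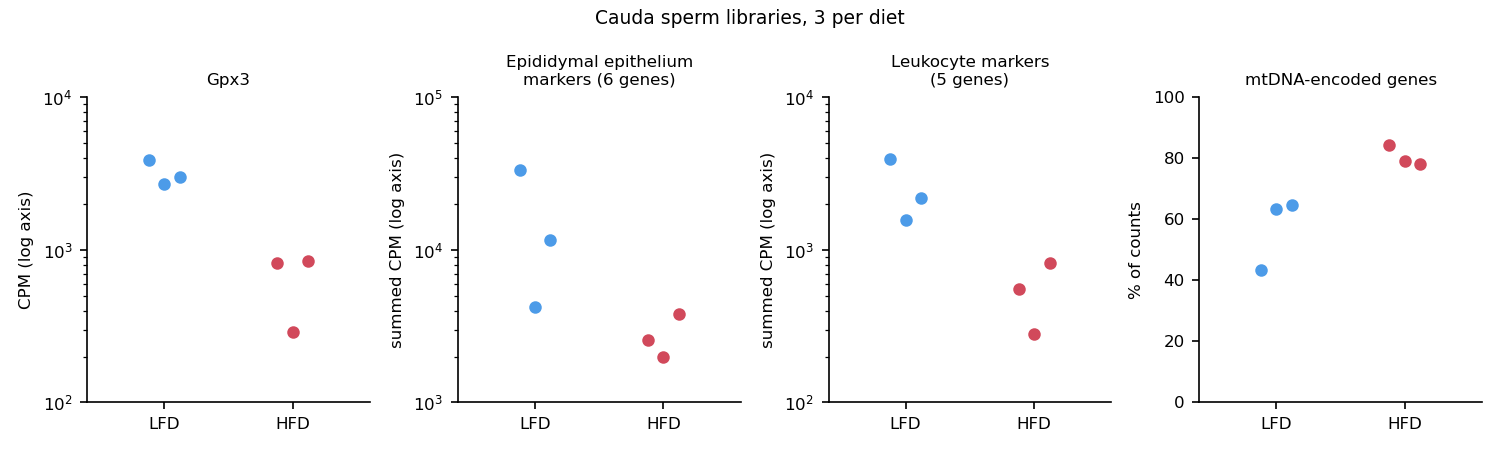
Gpx3 level, summed epididymal epithelium and leukocyte marker levels (CPM of library totals on log axes) and the percent of counts on mitochondrial DNA in the 3 LFD and 3 HFD sperm libraries, 1 point per library. HFD libraries have the lower Gpx3, epididymal and leukocyte marker levels and the higher mitochondrial share, with no overlap between the diets on this scale. Of all tested genes, 57.2% likewise had every HFD library below every LFD library in CPM of library totals.

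In morulae the question was whether embryos sired by HFD males carry a changed set of these transcripts. None of the 9 tested members was called. Of 13447 genes, 0 (0%) passed the adjusted threshold in edgeR's test, 858 (6.38%) had an unadjusted p under 0.05, and DESeq2 called 9. Estimates were small, from -0.20 for Gpx1 to 0.24 for Gpx4 on the log2 scale. Gpx1 came nearest to a difference (-0.20 ± 0.11 SE, unadjusted p = 0.0761, adjusted p = 0.795, edgeR) and was the 1 member of 9 without overlap after TMM scaling, against 12.1% of all tested genes, with 6.18% having HFD below. Prdx5 (-0.20 ± 0.15), Cat (-0.15 ± 0.19) and Sod2 (-0.14 ± 0.10) lay below 0, and Sod1 (0.04 ± 0.12), Gpx3 (0.10 ± 0.38), Prdx3 (0.19 ± 0.23), Txn2 (0.22 ± 0.15) and Gpx4 (0.24 ± 0.20) above it. In CPM of library totals 2 of 9 members did not overlap, Gpx1 with HFD below and Txn2 with HFD above, against 11.9% of all tested genes, 5.29% with HFD below. In CPM of nuclear gene counts Txn2 alone of the 9 did not overlap, again with HFD above, against 12.1% of all tested genes without overlap, 7.30% with HFD above and 4.83% with HFD below. The summed CPM of all 10 members was 434, 442 and 470 on HFD and 448, 463 and 470 on LFD.

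The diet differences of sperm and morulae were then set against each other gene by gene. With an exact two-sided permutation of the diet labels within each cell type (400 arrangements, smallest possible p 0.005) on TMM-scaled log2 CPM with a prior count of 2, 0 of 9 members passed after adjustment over the 9 tests. Txn2 came nearest, with HFD minus LFD at -2.17 in sperm and 0.22 in morulae, a difference of -2.39 (p = 0.01, adjusted p = 0.09, exact permutation test). Prdx3 differed by -1.04 (p = 0.075, adjusted p = 0.338, exact permutation test) and the other 7 members had adjusted p-values of 0.42 or more. With library totals in place of TMM, Txn2 (-3.62) and Gpx4 (-2.28) passed at an adjusted p of 0.045 each in the exact permutation test. That scaling moves the median of all tested sperm genes by -1.75, and the share of all genes that would pass was not computed, so nothing particular to these 2 members is read from it.

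Among the 3 metabolic tissues, most members differed between any 2 tissues, as did most genes. The comparison had 10851 genes after filtering and 9 members, since Gpx4 was below the filter. Between eWAT and liver 7 of 9 members differed (61.6% of all genes did). Gpx3 was the 1 member higher in eWAT (32.7% of all genes were), by a log2 difference of 7.10 ± 0.40 SE (adjusted p = 4.74e-13, edgeR). In liver 6 were higher (28.9% of all genes were), from Cat (-1.83 ± 0.18) and Txn2 (-1.58 ± 0.19) through Sod2 (-1.38 ± 0.25), Gpx1 (-1.07 ± 0.18) and Sod1 (-1.06 ± 0.18) to Prdx5 (-0.76 ± 0.14). Prdx3 (-0.34 ± 0.24, adjusted p = 0.229, edgeR) and Nqo1 (-0.03 ± 0.52, adjusted p = 0.965, edgeR) did not pass.

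Most of the smaller differences between eWAT and liver rested on the scaling. Library totals shifted the median of all genes from 0.07 to 1.00 and left 4 calls among the 9 members, while 77.4% of all genes were called. Gpx3 and the liver side of Cat and Txn2 were among them, and Prdx3 was called in the other direction (0.57, adjusted p = 0.0393, edgeR). Gpx1 (-0.15), Sod1 (-0.13), Sod2 (-0.47) and Prdx5 (0.17) were then not called. Without the 2 eWAT libraries that carried epididymal markers, a choice made after seeing the data, Gpx3 remained higher in eWAT (6.52 ± 0.29). Again 7 members were called, as were 6842 of the 11293 genes tested.

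Gastrocnemius differed from liver in 8 of 9 members (66.4% of all genes). Gpx3 (4.24 ± 0.37), Nqo1 (3.36 ± 0.47) and Prdx3 (1.10 ± 0.24) were higher in muscle, as were 31.5% of all genes. Lower in muscle, as were 34.9% of all genes, was Gpx1 by the widest margin among the members (-5.27 ± 0.22, adjusted p = 3.93e-15, edgeR), followed by Cat (-3.91 ± 0.20), Sod1 (-2.51 ± 0.19), Prdx5 (-1.19 ± 0.15) and Txn2 (-0.93 ± 0.19). Sod2, at 0.55 ± 0.25, missed the threshold (adjusted p = 0.0552, edgeR), and passed it without 1 library in 9 of 18 cases, without the 2 eWAT libraries (adjusted p = 0.0377, edgeR) and in DESeq2 (adjusted p = 0.0463).

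Gastrocnemius and eWAT differed in all 9 tested members (67.4% of all genes). Higher in muscle, as were 26.3% of all genes, were Nqo1 (3.40 ± 0.42), Sod2 (1.93 ± 0.26), Prdx3 (1.44 ± 0.24) and Txn2 (0.65 ± 0.19). Higher in fat, as were 41.1% of all genes, were Gpx1 (-4.20 ± 0.22), Gpx3 (-2.86 ± 0.32), Cat (-2.08 ± 0.19), Sod1 (-1.44 ± 0.19) and Prdx5 (-0.43 ± 0.15). Without the 2 eWAT libraries, Gpx3 stood at -2.27 ± 0.24 and all 9 were called, as were 7364 of the 11293 genes tested. Under library totals Txn2 turned to -0.32 and lost its call, as did Prdx3 (0.49), Prdx5 lost its call with TMM on nuclear genes alone (-0.30, adjusted p = 0.0801, edgeR), and the median of all genes moved from -0.35 to -1.32 under library totals.

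**Figure D5:**
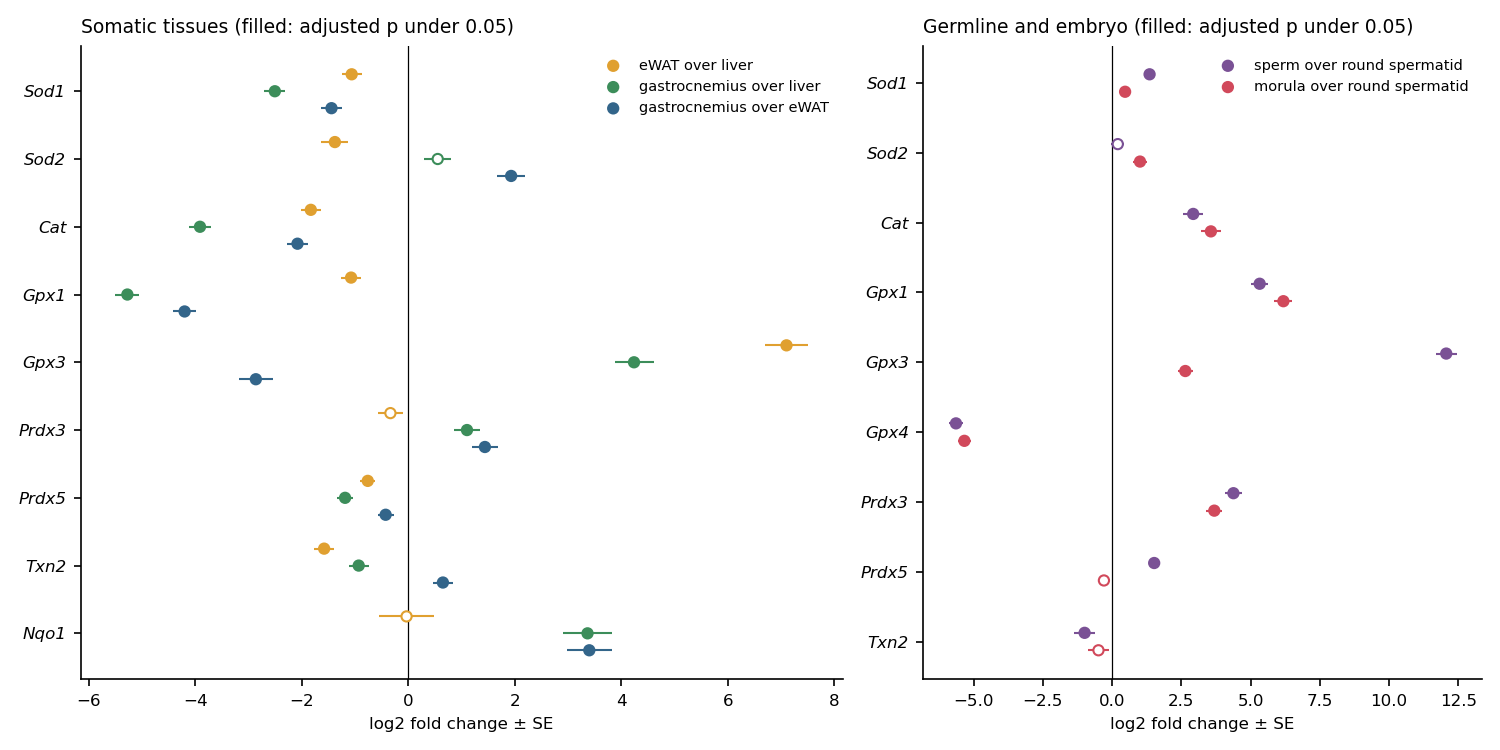
Log2 fold change with its SE (horizontal axis) of each tested member (vertical axis) in the comparisons between tissues and between germ cells and embryos, with filled points where the adjusted p was under 0.05 in edgeR's test. Gpx3 has the largest positive values of eWAT over liver (7.10) and of sperm over round spermatid (12.06), and Gpx4 the lowest of the germ cell comparisons.

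The germ cell and embryo libraries were compared with both diets pooled. Preparation differs among them, with ribosomal RNA removed and paired reads in round spermatids, single reads in sperm and paired reads in morulae, and cannot be told apart from the cell type. Sod1 was counted over 3970 annotated exon bases in sperm and morulae against 646 in round spermatids. For Sod2 the lengths were 10008 and 3824 bases. The fits take no account of these lengths, so for both genes the cell type and the region counted cannot be told apart. Of 20345 genes tested, 75.3% differed between sperm and round spermatids, with a median of -1.24, and 8 of 9 members did. Of all genes 23.4% were higher in sperm, and 6 of the 9 members were. Gpx3 was higher in sperm by 12.06 ± 0.37 on the log2 scale (adjusted p = 2.03e-14, edgeR), Gpx1 by 5.33 ± 0.32, Prdx3 by 4.38 ± 0.30, Cat by 2.93 ± 0.37, Prdx5 by 1.52 ± 0.17 and Sod1 by 1.35 ± 0.17. The epididymal and leukocyte markers described above were likewise near 0 in round spermatids (at most 0.755 and 14.2 CPM) and present in every sperm library, and their part in these differences was not tested.

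Gpx4 was lower in sperm (-5.64 ± 0.26, adjusted p = 9.03e-13, edgeR), and this held in every setting tried. None of these settings dealt with reads that also match copies of the gene. Of the summed Gpx4 and Gpx4-ps2 counts, Gpx4-ps2 held 4.57% in round spermatids. It held 18.2% in HFD and 12.7% in LFD sperm, and 19.5% in HFD and 25.9% in LFD morulae. The part of such reads in the Gpx4 differences was not tested. Txn2 was lower as well (-0.996 ± 0.39, adjusted p = 0.0254, edgeR). That call was lost when any of 16 of the 18 libraries was left out (-0.79 to -0.51), and relative to the median of all genes Txn2 stood at 0.24. Morula libraries, which have no part in this difference, were among the 16 (-0.74 without the HFD morula library of 11606215 counts). Each refit filtered and scaled the counts anew, so the left-out library and the new filter and scaling cannot be told apart. Sod2 was not called (0.20 ± 0.24), but passed without the HFD sperm library of 3679276 counts (0.59, adjusted p = 0.0167, edgeR) or that of 4062321 counts (0.65, adjusted p = 0.00454, edgeR). Under library totals it turned to -0.79, and Sod1 (0.26) and Prdx5 (0.34) lost their calls.

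Between morulae and round spermatids 86.6% of genes differed, with a median of -1.36, and 7 of 9 members did. Gpx1 (6.18 ± 0.33), Prdx3 (3.69 ± 0.29), Cat (3.57 ± 0.36), Gpx3 (2.64 ± 0.27), Sod2 (1.00 ± 0.24) and Sod1 (0.47 ± 0.17) were higher in morulae, as were 31.2% of all genes, and Gpx4 was lower (-5.34 ± 0.25). Txn2 (-0.49 ± 0.36) and Prdx5 (-0.30 ± 0.17) did not pass in edgeR. Both passed in DESeq2 (-0.68, adjusted p = 0.0398, and -0.48, adjusted p = 0.00106), and Prdx5 also in edgeR with DESeq2 size factors (-0.48, adjusted p = 0.015). Sod1 lost its call under DESeq2 size factors (0.28), library totals (0.15) and no count filter (0.40), and Sod2 under library totals (0.69). The longer exons over which both genes were counted in morulae apply here too.

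The other genes of the pathway, a list of 52 that supply glutathione, thioredoxin and selenium or act beside the members, were counted in the same fits. In sperm 37 were tested and 0 were called with diet (median log2 difference 0.04), and in morulae 39 were tested and 0 were called (median -0.08), where no gene of the whole table was called either. Between eWAT and liver 35 of 41 differed (61.6% of all genes), 28 of them higher in liver (28.9% of all genes; median -1.46). Among these were the 4 genes of selenium supply, including Sephs2, which makes the selenium donor (liver 180 to 468 CPM, eWAT 37.2 to 68.7, log2 difference -3.63 ± 0.25). Sod3, the secreted superoxide dismutase, went the other way, at 146 to 256 CPM in eWAT and 5.26 to 12.3 in liver (3.74 ± 0.24), and Gpx7, a peroxidase of the endoplasmic reticulum, by 4.57 ± 0.40. Gpx8, of the same compartment, had up to 31.3 CPM in eWAT (median 24.7) and 1 count in all liver libraries together. All pathway counts given here were made with TMM scaling only. Library totals moved the median of all genes between eWAT and liver from 0.07 to 1.00, and the pathway counts were not repeated on that scale.

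Against liver 24 of 41 pathway genes were lower and 9 higher in gastrocnemius (34.9 and 31.5% of all genes; median -1.39), among the lower Mgst1, a membrane-bound glutathione transferase (-5.69 ± 0.37), and Selenop, the selenium transport protein made by liver (2498 to 5373 CPM in liver, 109 to 174 in muscle, -4.83 ± 0.24). Against eWAT 19 were lower and 10 higher (41.1 and 26.3% of all genes; median -0.34), with Sod3 (-5.19 ± 0.29), Mgst1 (-2.94 ± 0.33) and the biliverdin reductase Blvrb (-2.72 ± 0.33) among the lower. Gsta3, a glutathione transferase, was at 134 to 438 CPM in liver and 67.3 to 160 in eWAT, with 0 to 2 counts per muscle library.

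In the germ cells, thioredoxin genes of the testis stood high in round spermatids. Txnrd3, a thioredoxin glutathione reductase, was at 611 to 636 CPM in round spermatids and 0.165 to 2.09 CPM in morulae (-9.18 ± 0.52), and Txndc2, a thioredoxin of the developing sperm tail, at 311 to 392 and 0 to 0.823 CPM (-9.98 ± 0.58). Txndc8 was at 73.0 to 93.4 CPM in round spermatids with 0 counts in all 6 morula libraries. Gstm5, a glutathione transferase, was at 980 to 1115 CPM in round spermatids, 784 to 1771 in sperm and 0 to 0.741 in morulae. Txn1, the cytosolic thioredoxin, took the opposite course, from 0.749 to 1.25 CPM in round spermatids to 12.5 to 122 in sperm (6.94 ± 0.25), as did Glrx, a glutaredoxin (6.69 ± 0.63), and Gsta3 (6.49 ± 0.40). Gpx5, the peroxidase secreted by the epididymis, was at 1.48 to 6.35 CPM in HFD sperm and 6.18 to 22.7 CPM in LFD sperm, with 8 counts in all round spermatid libraries together. Over all pathway genes tested, 29 of 49 were higher and 12 lower in sperm than in round spermatids (23.4 and 51.9% of all genes; median 1.64). In morulae 24 were higher and 21 lower (31.2 and 55.4% of all genes; median -0.30).

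Across the 18 tissue libraries, the gene whose log2 level followed each member most closely, by Pearson correlation among 7592 genes, was Acot4 for Gpx1 (r = 0.993), Tgoln1 for Cat (0.992), Coasy for Sod1 (0.987), Ano6 for Gpx3 (0.981), C1qbp for Sod2 (0.968), Wipi2 for Prdx5 (0.964), Dcaf11 for Txn2 (0.957) and Tox4 for Prdx3 (0.951). These libraries form 3 tissue clusters, so the values describe likeness of tissue pattern. Gpx4 and Nqo1 were too low to be ranked.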

How the data were processed

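RNA-seq counts per gene were analysed in 36 libraries. The authors used BBDuk for trimming, STAR for alignment to the Ensembl GRCm38 genome and featureCounts for counting. The deposited values are raw counts per gene, with 6 libraries in each of 6 tables. Versions, strand setting and handling of reads with several matches are not given in the sources used here. Round spermatids, sperm and morulae were prepared with the Nextera kit (75-base reads, ribosomal RNA removed in round spermatids), and tissues with QuantSeq 3′ (50-base reads). Sample titles gave the groups. Columns were tied to them by the table of each tissue and, for diet, only by letters in the column names (h and l in sperm, MH and ML in morulae), and no column was tied to a single sample. In all, 0 columns were left out for want of a matching label.

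Counts were fitted with edgeR 4.0.16 (TMM, filterByExpr with a minimum count of 10, quasi-likelihood test, R 4.3.3) over all genes of a comparison, with Benjamini-Hochberg adjustment over all genes tested and a threshold of 0.05. The standard error is the absolute log2 fold change divided by the square root of F. Diet was fitted within sperm and within morulae, tissues and germ cells each in 1 model. The study's own test, NOISeq, was not used here. Alternatives were DESeq2 1.42.0, limma 3.58.1 (voom), DESeq2 size factors, library totals, TMM on nuclear genes, no count filter, each library left out, and, for sperm, the replicate number as a block. Sequences were read from the GRCm38 reference and copies found with BLAST 2.17.0. The fits were tested on simulated data with known changes. The sperm diet fit recovered 0 of 96 genes changed 2-fold and 12 of 88 changed 4-fold, so it could miss most such changes. For the morula diet these were 58 of 92 and 78 of 93, with 9.33% of calls false. Between eWAT and liver they were 49 of 94 and 94 of 98 (2.72% false), and between morulae and round spermatids 47 of 96 and 77 of 93 (5.34% false). The 10 members, the 52 pathway genes and the marker lists were chosen with earlier results of these data known. Every member is named, and in each comparison at most the 4 pathway genes past the threshold with the largest absolute log2 fold change, besides the nearest gene of each member over the 18 tissue libraries.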

Additional observations from a re-analysis of the deposited data

Results flagged for a closer look

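Among 39 groups of 6 libraries, 1 gene and 1 tissue or cell type each, 4 had a library far from the others by Dixon's test, where chance gives about 1 in 20. Gpx4 in liver was at 2.13 CPM in the library of 2347546 counts, from 5 counts, against 0 or 1 count in the other 5. Nqo1 in liver was at 0 CPM in the library of 2279651 counts, and the other 5 reached at most 4 counts and 1.80 CPM. With so few counts for Gpx4 and Nqo1, the stated rate by chance need not hold. In gastrocnemius, the library of 935991 counts stood apart for both Sod2, at 401 CPM against 160 to 236 in the other 5, and Cat, at 115 CPM against 68.1 to 77.1. The shallower muscle library of 369772 counts was not far from the others for either gene.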

How the results depend on the processing

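Leaving out any 1 library kept the number of members called past or short of the threshold within 1.5 times its value in all comparisons: 0 to 0 for the sperm diet and the morula diet, 7 to 7 for eWAT against liver, 8 to 9 for gastrocnemius against liver, 9 to 9 for gastrocnemius against eWAT, 7 to 9 for sperm and 7 to 8 for morulae against round spermatids. The log2 differences that crossed 0 in this way were those of Sod1 (-0.50 to 0.0254), Gpx1 (-0.71 to 0.57) and Prdx5 (-0.22 to 0.37) for the sperm diet, Sod1 (-0.0507 to 0.15) and Gpx3 (-0.22 to 0.30) for the morula diet, and Nqo1 (-0.31 to 0.11) for eWAT against liver. Library totals changed the number of members called to 7 for the sperm diet, to 4 for eWAT against liver and to 2 for the difference of the diet effects. By less than 1.5 times, they also lowered it to 7 for gastrocnemius against eWAT, and to 6 for sperm and 5 for morulae against round spermatids. They reversed Gpx1 (-1.40) and Prdx5 (-1.60) for the sperm diet, Prdx3 (0.57), Prdx5 (0.17) and Nqo1 (0.86) for eWAT against liver, Txn2 (-0.32) for gastrocnemius against eWAT, Sod2 (-0.79) for sperm against round spermatids, and Gpx1 (-1.62) and Prdx5 (-1.44) in the difference of the diet effects. The cause was not tested. Without the count filter Prdx5 was at -0.047 for the sperm diet and Nqo1 at 0.0143 for eWAT against liver, where Nqo1 was at 0.20 without the 2 libraries with epididymal markers. Over all genes, the sperm diet gave 0 calls in the fit reported, 286 in DESeq2, 41 without the filter and 3266 under library totals, and the morula diet 0, against 9 in DESeq2, 63 without the filter and up to 2 with a library left out. Morulae against round spermatids gave 17614 calls and 27642 without the filter. In 58 of 160 cases a member's level moved by more than 1 SD when divided by nuclear gene counts or when summed with overlapping genes. The sum could move only Prdx5, the only member with an overlapping gene. Sperm libraries share replicate numbers in 2 pairs only. Deviations of same-numbered libraries correlated at 0.10 and -0.15, and with the replicate block 0 members and 2 genes were called and Gpx1 was at -0.75. No paired analysis was possible because the morula libraries of both diets share no numbers in the columns. Counts were lowest for Nqo1, with at most 11 in a sperm library, and for Gpx4 in the tissues, with at most 10.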

Other observations

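One eWAT library, that of 3512177 counts, held 416 CPM of Gstm5, the glutathione transferase that round spermatids express at 980 CPM or more. The median of the 6 eWAT libraries was 20.9 CPM. The same library had 62.9 CPM of the summed sperm markers, against 0 to 2.42 CPM in the other 5.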
